A study of Mus musculus with 12 samples.

Results

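The genes described here are 37 genes of the extracellular matrix and of the stromal cells that make it. They are collagen chains, matrix glycoproteins and proteoglycans, enzymes and chaperones that build or protect the matrix, receptors of mesenchymal cells, and actin cytoskeleton genes of contractile cells. They were taken from a list of gene symbols and not by a cut on measured values. The list was chosen with earlier results of these data known. Of the 37 genes, 35 had a probe set annotated with that symbol alone, out of 18193 genes with such a probe set, and 33 passed the filter on low signals and were tested. Each gene was read from its brightest probe set. Fbn1 (fibrillin-1) had no probe set of its own, and Loxl2 (a lysyl oxidase relative) appeared only on 2 probe sets shared with Gm21451. Thy1, a surface glycoprotein of fibroblasts among other cells, gave signals of 0.6 to 14.5, and Lum (lumican, a collagen-binding proteoglycan) 0.7 to 8.8. Both stayed at or below the array median, which lay between 18.9 and 26.9, on all 12 arrays.

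The samples were bone marrow macrophages of wild-type mice (WT) and of mice labelled IRAK4 kinase dead (KD), whose IRAK4 lacks kinase activity. IRAK4 is recruited by the adaptor MyD88 when a Toll-like receptor is engaged. For each genotype 2 biological replicates were left unstimulated for 4 h, 2 received LPS (bacterial lipopolysaccharide, a Toll-like receptor 4 ligand) at 1 µg/ml for 1 h, and 2 received it for 4 h, so that 12 arrays fell into 6 groups. Because the unstimulated cultures were kept for 4 h, LPS and culture time differ together at 1 h. All cultures were kept in medium with 10% fetal calf serum and 30% medium conditioned by L-929, a mouse fibroblast line. The allele, strain background and age of the mice, and whether replicates came from separate animals, are not stated in the labels. The p-values therefore measure the spread between arrays, which may in part be technical.

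Fibrillar collagens are secreted as triple helices that depend on the chaperone HSP47, are cross-linked outside the cell by lysyl oxidases, and carry fibril-associated collagens and small proteoglycans on their surface. Matricellular proteins such as thrombospondins, periostin and SPARC bind this scaffold and modulate how cells attach to it. Fibroblasts and other mesenchymal cells are the usual source of most of these transcripts. Macrophages are known to make some matrix proteins, fibronectin among them, and to respond to others.

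Markers of the labelled cell type were present: of 13 macrophage markers, 12 or 13 lay above the array median on every array. RNA of matrix genes was measurable in the same cultures, and in bulk RNA fewer cells of a type cannot be told apart from less RNA per cell. The Irak4 transcript itself was not analysed here, so the genotype labels were not checked by it. KD unstimulated replicate 2 stood apart for the matrix genes: it held the lowest signal of all 12 arrays for 19 of the 33 tested genes, and 27 of the 33 lay below replicate 1 of the same group, compared with 51.3% of all tested genes. KD unstimulated replicate 1 had the highest 3' to 5' signal ratio of the 12 arrays for both control transcripts, 1.35 (log2) for Gapdh and 3.04 for Actb, against ranges of 0.81 to 1.17 and 2.22 to 2.85 on the others. In the KD LPS 1 h group, 25 of the 33 genes lay below replicate 1 in replicate 2, compared with 49.4% of all tested genes, with a median difference of -0.26 (log2) against -0.31 in the unstimulated KD group. The part of these differences between arrays in the results was not tested.

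In unstimulated cultures the matrix genes were lower in KD than in WT. Of the 33 tested genes, 15 were lower at an adjusted p under 0.05, against 3.87% of the 12876 tested genes, and 1 was higher, against 2.92%. The median log2 difference was -0.67 over the 33 genes and 0.03 over all tested genes. Postn (periostin, a matricellular protein of fibrous tissue) fell by 2.20 ± 0.29 (log2 ± SE, adjusted p = 0.000217) and Mfap5, a microfibril protein, by 1.54 ± 0.42 (adjusted p = 0.0394). Behind them in size were Col12a1, Pdgfrb, Col1a2, Col5a2, Col1a1 and Serpinh1, which fell by 1.47, 1.35, 1.24, 1.23, 1.12 and 0.93. Fbln1, the fibulin-1 gene, was the 1 higher gene (1.16 ± 0.28, adjusted p = 0.0211). The count of 16 became 10 when either WT unstimulated replicate 1 or KD unstimulated replicate 2 was left out.

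In KD cultures many of the matrix genes were higher with LPS than without it. At 4 h, 19 of 33 genes were higher and 0 lower, against 6.74% and 6.52% of all tested genes, and the medians were 0.72 and -0.06. At an unadjusted p under 0.05 the count was 23 of 33. Col6a1, a chain of the microfibrillar collagen VI, rose by 1.54 ± 0.16 (adjusted p = 2.45e-06) and Fstl1, a secreted SPARC-related glycoprotein, by 1.35 ± 0.14 (adjusted p = 1.59e-06). Col6a2, Pdgfra, Col6a3, Serpinh1, Col4a2 and Pdgfrb followed with 1.24, 1.15, 1.02, 1.00, 0.97 and 0.95. Leaving out KD unstimulated replicate 2 gave 11 in place of 19, and leaving out the LPS 4 h replicate 1 of KD gave 12. At 1 h, 9 genes were already higher and 2 lower, against 3.86% and 3.27%, with medians of 0.39 and -0.02. Without KD unstimulated replicate 2, or without the LPS 1 h replicate 1 of KD, 5 were higher and 3 lower, and without KD unstimulated replicate 1 there were 11 and 2. The 8 largest increases at 1 h were those of Col6a1 (1.35), Col6a2 (1.23), Thbs2 (1.17), Pdgfra (1.15), Col1a2 (0.79), Sparc (0.75), Bgn (0.73) and Fstl1 (0.72), and the 2 genes that fell were Timp3 (-0.86) and Tagln (-0.73).

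In WT cultures few of these genes passed the test. At 1 h, 1 was higher (Sparc, 0.39 ± 0.10, adjusted p = 0.0317) and 1 lower (Timp3, -0.94 ± 0.15, adjusted p = 0.000469), against 3.46% and 4.11% of all tested genes. The count of 2 became 1 without either WT unstimulated array or without WT LPS 1 h replicate 1. At 4 h, 1 was higher (Fstl1) and 3 were lower (Thbs2, Col1a1 and Serpinh1), against 8.04% and 13.8%, so that the shares in the matrix list were below those of all genes in both directions. The count of 4 became 2 without WT LPS 4 h replicate 1 or replicate 2. With arrays scaled to a common median the split at 4 h was 2 higher and 2 lower.

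The difference between the genotypes' LPS responses was tested as an interaction (KD change minus WT change). At 4 h, 12 of 33 genes had a more positive change in KD and 0 a more negative one, against 2.92% and 1.45% of all tested genes, with medians of 0.83 and 0.09; at an unadjusted p under 0.05 there were 24. At 1 h there were 2 and 0, against 0.264% and 0.233%, with medians of 0.47 and 0.02 and 12 genes at an unadjusted p under 0.05. The unstimulated KD arrays enter the unstimulated genotype difference, both KD responses and both interactions, so these comparisons are not independent of each other. The count of 12 became 5 and 7 without WT unstimulated replicates 1 and 2, 4 and 7 without WT LPS 4 h replicates 1 and 2, 7 without KD unstimulated replicate 2, and 4 when KD LPS 4 h replicate 1 was left out. With KD unstimulated replicate 1 left out there were 17. By gene, the 4 h call was lost in 7 of the 12 fits with an array left out for Col5a2 and Fstl1, in 6 for Col1a2, Col3a1 and Cald1, in 3 for Thbs2, Lox and Bgn, in 1 for Col1a1 and in none for Serpinh1, Col6a1 and Sparc. The call of Col3a1 was also lost with quantile normalization and with no filter. The 1 h count of 2 was 0 to 5 when single arrays were left out: 0 without WT unstimulated replicate 1, WT LPS 1 h replicate 2 or KD LPS 1 h replicate 1, 5 without KD unstimulated replicate 1, and 1 without WT unstimulated replicate 2, WT LPS 1 h replicate 1, KD unstimulated replicate 2 or any of the 4 arrays of LPS 4 h.

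Under LPS the genotypes differed at fewer of these genes than in unstimulated cultures by count, a difference of counts that was not tested. At 1 h of LPS, 2 genes were higher in KD and 6 lower, against 0.831% and 0.8% of all tested genes, with medians of -0.21 and 0.03. At 4 h, 4 were higher and 1 lower, against 4.56% and 2.62%, with medians of 0.20 and 0.10. Postn was lower at both times, by 2.09 and 1.60, and at 1 h it was followed by Dcn (-2.04), Col5a2 (-1.14), Col1a1 (-0.70), Tagln (-0.68) and Acta2 (-0.53). Col6a2 and Thbs2 were higher in KD at 1 h by 0.95 and 0.93, and at 4 h Col6a2, Col6a1, Thbs2 and Serpinh1 were higher by 1.06, 1.01, 0.73 and 0.59. With the mean of all probe sets of a gene, only Postn among these genes kept its call at 1 h. At 4 h Postn, Col6a2 and Col6a1 kept theirs, and Thbs2 (0.72) and Serpinh1 (0.33) did not. The 4 h calls of Thbs2 and Serpinh1 were also lost with arrays scaled to a common median. The 1 h count of 8 became 3 without WT LPS 1 h replicate 1 or 2 and 5 (2 of them lower) without KD LPS 1 h replicate 2, and the 4 h count of 5 became 2 without WT LPS 4 h replicate 1 or KD LPS 4 h replicate 2.

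The comparisons of KD with WT depended on how the arrays were scaled. The deposited signals shared a trimmed mean, whereas the median signal of an array was 18.9 to 22 for WT and 24.2 to 26.9 for KD. With arrays scaled to a common median, the median difference of all genes moved to -0.18 unstimulated, -0.27 at 1 h and -0.20 at 4 h, and that of the matrix genes to -0.87, -0.51 and -0.12. The genes higher and lower then numbered 1 and 22 unstimulated, 2 and 15 at 1 h and 2 and 5 at 4 h, against 12.6%, 18% and 20.1% of all tested genes called in either direction. At 4 h the matrix genes were thus called about as often as all genes, and the split of their calls turned from mostly higher to mostly lower. Under this scaling the KD responses to LPS had 9 and 2 genes at 1 h and 20 and 0 at 4 h, and the interaction at 4 h had 12 and 0. The calls between genotypes and in the interactions also rested on a variance estimate that used the trend of variance with signal. Without that trend limma called 0 of the 33 genes in each of the 3 genotype differences and both interactions (20, 13, 8, 6 and 20 at an unadjusted p under 0.05), and 4 and 9 in the KD responses at 1 h and 4 h.

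**Figure D1:**
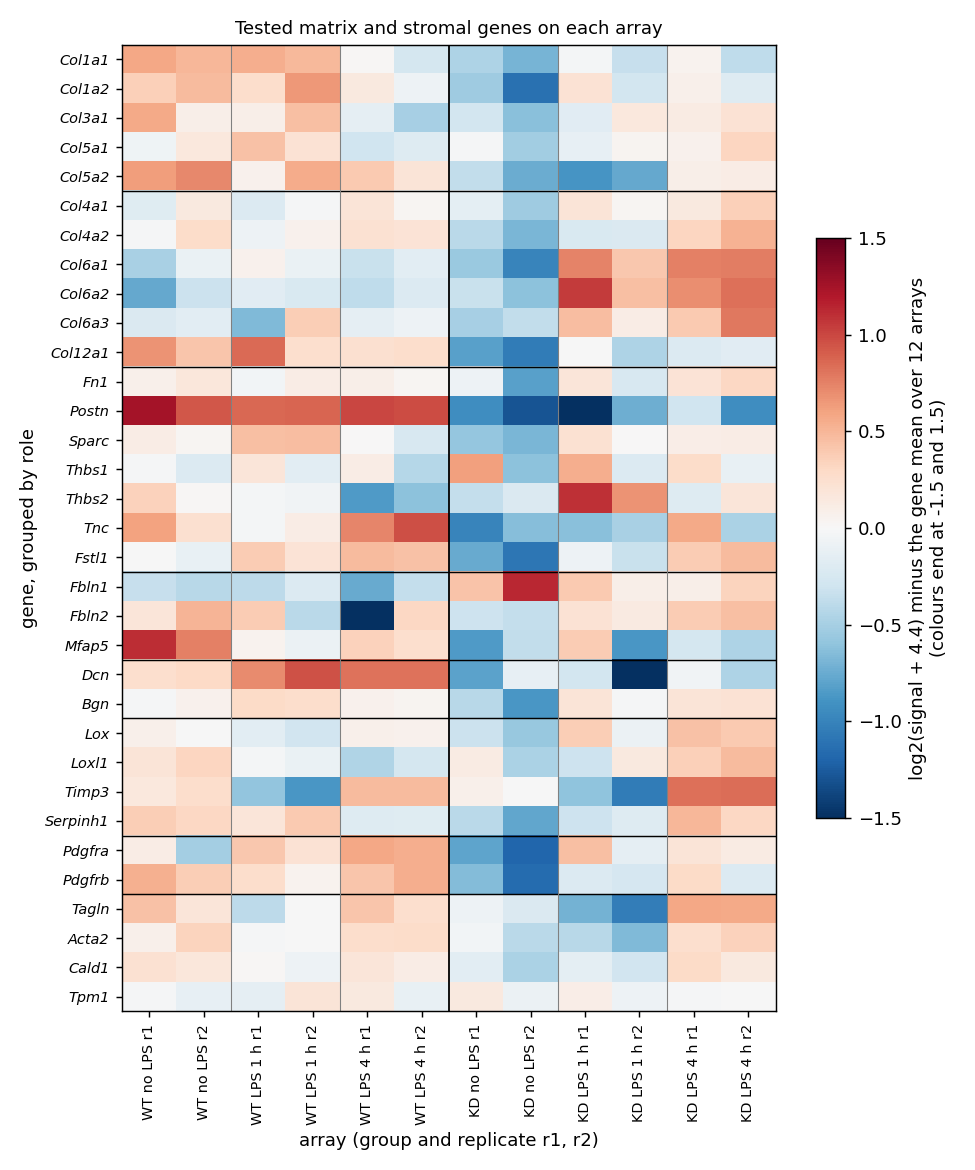
Each row is 1 of the 33 tested genes, grouped by role, and each column 1 of the 12 arrays (r1 and r2 are the replicates of a group). Colour gives log2(signal + 4.4) minus the gene's mean over the 12 arrays, with the scale ending at -1.5 and 1.5. The unstimulated KD columns are blue for most genes, the KD LPS 4 h columns are mostly pale to red, and Postn is red in every WT column and blue in every KD column.

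Promoter sequence is shown for 4 of the genes on which these results turn: Thbs2, Serpinh1 and Col6a1, whose 4 h responses differed between genotypes, and Postn, which was lower in KD in every condition. RefSeq promoter windows (GRCm38.p6) matched 23 of the 37 genes with 28 windows, some genes having several starts, and only the 250 bases before each start were used. Capitals mark matches, on either strand, to an NF-κB site (the decamer consensus by name), the AP-1 motif TGANTCA or TATAAA.
Thbs2, chr17:14694263-14694512, minus strand: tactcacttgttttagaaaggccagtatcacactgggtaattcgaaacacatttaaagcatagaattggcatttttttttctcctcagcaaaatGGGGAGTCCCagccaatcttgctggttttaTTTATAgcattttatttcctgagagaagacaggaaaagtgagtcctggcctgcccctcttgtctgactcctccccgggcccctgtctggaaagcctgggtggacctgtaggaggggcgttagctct
Serpinh1, chr7:99353240-99353489, minus strand: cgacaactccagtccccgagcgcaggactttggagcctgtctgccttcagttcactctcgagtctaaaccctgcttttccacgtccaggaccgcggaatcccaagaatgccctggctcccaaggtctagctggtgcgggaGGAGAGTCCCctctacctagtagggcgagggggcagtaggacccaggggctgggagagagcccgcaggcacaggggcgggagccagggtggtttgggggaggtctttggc
Col6a1, chr10:76726045-76726294, minus strand: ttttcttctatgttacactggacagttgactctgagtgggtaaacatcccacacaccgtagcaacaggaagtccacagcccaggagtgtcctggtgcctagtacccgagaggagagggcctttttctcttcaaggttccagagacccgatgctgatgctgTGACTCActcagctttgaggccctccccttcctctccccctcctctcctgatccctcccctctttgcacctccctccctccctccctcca
Postn, chr3:54360857-54361106, plus strand: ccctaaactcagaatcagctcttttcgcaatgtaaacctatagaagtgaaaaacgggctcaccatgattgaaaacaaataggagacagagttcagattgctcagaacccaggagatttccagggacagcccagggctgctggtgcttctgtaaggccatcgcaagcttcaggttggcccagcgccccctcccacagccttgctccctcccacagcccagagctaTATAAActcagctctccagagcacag
The Thbs2 window holds an NF-κB match at bases -156 to -147 from the start and a TATAAA read on the opposite strand at -126 to -121. Serpinh1 has an NF-κB match at -110 to -101, Col6a1 an AP-1 match at -90 to -84 and the Postn window printed a TATAAA at -26 to -21. Another Postn start has a window, chr3:54359017-54359266, that holds none of these motifs. The windows of Sparc, Bgn, Col1a2 and Fstl1, whose 4 h responses also differed between genotypes, hold none either and are not shown. Windows of Col3a1 and Cald1, with such a difference too, hold matches and are not shown. Over the 28 windows of the matrix genes, an NF-κB match was found in 2 (7.14%), against 3.9% of all 32851 windows of this length, an AP-1 match in 2 (7.14%), against 6.75%, and TATAAA in 6 (21.4%), against 12.4%. The pair of Tnc windows overlap and share 1 TATAAA, so the 6 windows hold 5 such sites in 5 genes. A CArG box, the motif that serum response factor binds, was found by name in 0 of the 28, against 1.47%. These are descriptions of letters in short windows.

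The fibrillar collagen chains form the bulk of connective tissue fibres, and 4 of the 5 tested were lower in unstimulated KD than WT (3.87% of all tested genes were). Col1a1, the α1 chain of collagen I, gave signals in WT of 1451.1 and 1380 without LPS, 1419.7 and 1361.1 at 1 h, and 987.8 and 806.8 at 4 h. In KD they were 702.7 and 599.5 without LPS, 950.5 and 766.1 at 1 h, and 1010 and 748.7 at 4 h. All 6 KD signals lay below the 4 WT signals without LPS or at 1 h, while WT at 4 h fell into the KD range. Col1a1 fell in WT at 4 h by 0.66 ± 0.14 (adjusted p = 0.00252), its KD change at 4 h was 0.42 ± 0.14 (adjusted p = 0.0728), and the interaction was 1.08 ± 0.20 (adjusted p = 0.00575). With the mean of all Col1a1 probe sets the WT change was -0.50 and the interaction 0.79, neither of them called. The unstimulated genotype difference was then -0.88 and kept its call.

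Col1a2, the partner chain of collagen I, moved from 298.9 and 197.1 in unstimulated KD to 502.5 and 355.9 at 1 h and 458.1 and 377.9 at 4 h. Its WT signals were 555.3 and 603.8, then 520.8 and 683.8, then 480.6 and 409.9. The unstimulated KD arrays were below all the others, and the change in KD was 0.77 ± 0.19 at 4 h (adjusted p = 0.0143; interaction 1.15 ± 0.27, adjusted p = 0.0272). With the mean of all Col1a2 probe sets the change was 0.23, the interaction 0.92 and the unstimulated genotype difference -0.57, none of them called. Col5a2, a collagen V chain that sits inside collagen I fibrils, behaved differently in time: KD signals were 195.9 and 150.2 without LPS, 135.3 and 147.9 at 1 h, and 269.9 and 275.5 at 4 h. WT signals were 396.1 and 421.6, 267 and 376.8, and 335.2 and 292.5. KD lay below WT with no overlap in all 3 conditions, and the increase in KD appeared at 4 h (0.65 ± 0.18, adjusted p = 0.0211; interaction 1.03 ± 0.25, adjusted p = 0.0278).

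Col3a1, the chain of collagen III found beside collagen I in soft tissue, had an interaction of 1.26 ± 0.32 at 4 h (adjusted p = 0.0347), although neither genotype's own 4 h change passed the test (-0.64 ± 0.22 in WT and 0.62 ± 0.22 in KD). Its signals ran from 87.5 in unstimulated KD to 206.3 in unstimulated WT. Col3a1 and Col5a2 are neighbours in the RefSeq annotation. Col5a1, the other collagen V chain, lay between 70.9 and 142.2 and was called in no comparison.

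Collagen VI forms beaded microfilaments around cells, and the increases of Col6a1 and Col6a2 in KD at both times kept their calls in every alternative fit. Col6a1 had 1 probe set, so the choices of probe set could not alter the sizes of its changes. Col6a1 signals in WT were 341.3 and 448.1 without LPS, 502.5 and 448.9 at 1 h, and 381.5 and 431.5 at 4 h. In KD they were 326.6 and 239.6, then 811.8 and 637.8, then 818.8 and 823.4. Every LPS-treated KD array lay above every other array, and both unstimulated KD arrays lay below every WT array. The interaction at 4 h was 1.49 ± 0.23 (adjusted p = 0.00167), and at 1 h it was 1.07 ± 0.23 (adjusted p = 0.0559).

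Col6a2, which lies next to Col6a1 in the genome, gave 205 and 167.7 in unstimulated KD, 543 and 358.5 at 1 h, and 426.1 and 462.9 at 4 h. In WT the signals were 150.8 and 207.6, 231.2 and 221.3, and 198 and 225.5. The unstimulated groups overlapped, and the LPS groups did not. Its interaction at 4 h, 0.99 ± 0.27, missed the threshold (adjusted p = 0.0576). Col6a3, the largest collagen VI chain, was higher in KD at 4 h (79.8 and 107.1 against 41.3 and 45.5 unstimulated), with an adjusted p of 0.0469 that 10 of the 12 fits with an array left out took past 0.05.

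Col4a2 and Col4a1 are neighbouring genes for the chains of collagen IV, the network of basement membranes. Col4a2 rose in KD from 95 and 77.5 to 160.9 and 185.3 at 4 h, above the 125.3 and 155.7 of unstimulated WT. Col4a1 had a 4 h change of 0.60 ± 0.21 in KD that did not pass the test (adjusted p = 0.0879). Col12a1, a fibril-associated chain that bridges collagen I fibrils, was lower in every KD array (77 to 163) than in every WT array (194.6 to 298.4). The KD change of Col12a1 at 4 h (0.74 ± 0.21) was -0.17 when all probe sets of the gene were averaged, and the unstimulated genotype difference was -0.43 and not called.

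**Figure D2:**
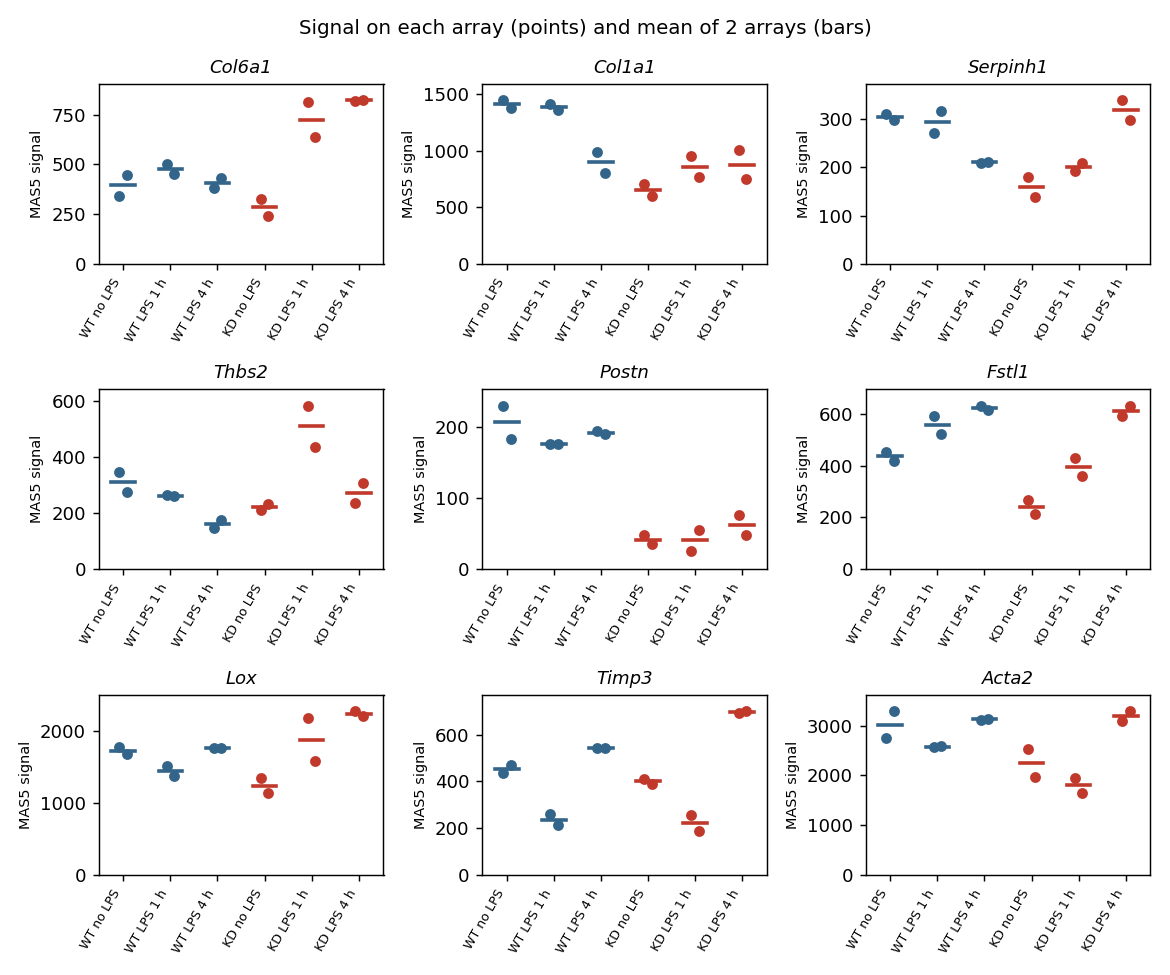
Deposited signal (linear axis from 0, arbitrary units) of 9 genes on each array, points being the 2 arrays of a group and bars their mean, with WT in blue and KD in red. Col6a1 stands at 637.8 to 823.4 in LPS-treated KD and at most 502.5 elsewhere, Postn at 175.5 or more in WT and at most 76.3 in KD, and Timp3 dips at 1 h in both genotypes.

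Among the adhesive and matricellular glycoproteins, Postn separated the genotypes on every array. Its signals were 230.3 and 183.6 in unstimulated WT, 175.5 and 176.2 at 1 h, and 194.4 and 190.2 at 4 h. In KD they were 47.6 and 35.9, 25.7 and 55.2, and 76.3 and 47.6. No LPS response of Postn passed the test in either genotype, with changes of -0.22 and -0.09 in WT and -0.11 and 0.50 in KD at 1 h and 4 h.

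Thbs2, which encodes thrombospondin-2, a matricellular protein that binds matrix proteases and cell-surface receptors, rose in KD at 1 h and fell in WT at 4 h. In WT the signals were 346.3 and 274.9 without LPS, 265.5 and 261.3 at 1 h, and 149.2 and 175.7 at 4 h, a fall by 0.91 ± 0.18 (adjusted p = 0.00102). In KD they were 211.4 and 233.3, then 585.6 and 437.1, then 237.7 and 308.8. The 2 KD arrays at 1 h were the highest of all 12, and the KD change at 4 h (0.28 ± 0.18, adjusted p = 0.399) did not pass the test. The interactions were 1.40 ± 0.25 at 1 h (adjusted p = 0.0199) and 1.19 ± 0.25 at 4 h (adjusted p = 0.0128). Of the other Thbs2 probe sets, 1 was called in both interactions (2.50 and 2.36) and 1 in neither (0.08 and 0.54). Thbs1, the related thrombospondin-1 gene, ranged from 633.9 to 1498.7 and was called in no comparison, its unstimulated KD arrays being 1498.7 and 633.9.

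Sparc, a collagen-binding matricellular protein, gave 1633 and 1537.3 in unstimulated WT, 2058.8 and 2085.3 at 1 h, and 1520.3 and 1275 at 4 h. In KD the signals were 1010.4 and 933.9, 1775.5 and 1515.3, and 1624.9 and 1631.6. Both genotypes were higher at 1 h, and only in KD did the level stay up at 4 h by the test of the difference itself (interaction 0.93 ± 0.15, adjusted p = 0.00176). In KD Sparc changed by 0.75 ± 0.10 at 1 h and 0.74 ± 0.10 at 4 h. With the mean of all Sparc probe sets these KD changes were 0.92 and 0.67, and neither was called. The 4 h interaction was then 0.76 and the WT change at 1 h 0.33, also not called.

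Fstl1 rose in both genotypes at 4 h from different starting levels. WT signals were 452.4 and 419.6, 593.1 and 521.3, and 632.5 and 615.6, and KD signals were 266.2 and 211.7, 431.4 and 360, and 590.9 and 631.9. At 4 h the genotypes overlapped (difference -0.03 ± 0.14), although they had not without LPS. The change was 0.51 ± 0.14 in WT and 1.35 ± 0.14 in KD (interaction 0.83 ± 0.20, adjusted p = 0.0246). Fn1, the fibronectin gene, gave 926.7 and 556.3 in unstimulated KD and 1130.7 and 1212.2 at 4 h (0.70 ± 0.17, adjusted p = 0.0114; 0.34 and not called with the mean of its probe sets), with WT between 952.7 and 1097 throughout. Tnc (tenascin-C), with signals of 10.9 to 55.1, was called in no comparison.

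The elastic fibre genes had low signals. Mfap5 gave 72.8 and 55.9 in unstimulated WT against 15.5 and 23.3 in KD, and under LPS the genotypes overlapped at 1 h. Fbln1 ran opposite to the rest: 51.4 and 48.8 in unstimulated WT and 90.4 and 150.9 in KD. Averaging all Fbln1 probe sets gave a difference of -0.37, so its direction rested on the probe set. Fbln2 was called in no comparison, with signals of 5.6 to 36.1.

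Of the small leucine-rich proteoglycans, which coat collagen fibrils, Bgn (biglycan) gave 964.5 and 700.4 in unstimulated KD, 1469.1 and 1265.2 at 1 h, and 1475.5 and 1500.1 at 4 h. WT signals lay between 1272.9 and 1563.4 on all 6 arrays. The unstimulated KD arrays lay below all the others, and the interaction at 4 h was 0.83 ± 0.17 (adjusted p = 0.0117). With the mean of all Bgn probe sets the interaction was 0.95 and not called (adjusted p = 0.0528). Dcn (decorin) was below every WT array on every KD array, at 9 to 52.1 against 65.5 to 109.6, and the difference passed the test at 1 h of LPS, where the KD signals were 43.9 and 9; with the mean of its probe sets that difference was -1.08 and not called.

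Serpinh1 encodes HSP47, the chaperone of procollagen in the endoplasmic reticulum, and on its brightest probe set the signals crossed between genotypes. In WT they were 311.2 and 298.9 without LPS, 272.4 and 317.2 at 1 h, and 209.9 and 211.4 at 4 h. In KD they were 179.8 and 137.8, 192.5 and 209.2, and 340.1 and 298.4. KD was below WT without LPS and above it at 4 h, with no overlap either time. The 4 h genotype difference (0.59, adjusted p = 0.0394) was 0.07 and not called on the gene's other probe set. Its call was also lost with quantile normalization and with arrays scaled to a common median. The WT fall by 0.52 ± 0.16 (adjusted p = 0.0303) and the KD rise of 1.00 ± 0.16 (adjusted p = 0.000321) gave an interaction of 1.52 ± 0.23 (adjusted p = 0.00136). The gene's other probe set was higher in KD at 4 h (1.06, adjusted p = 0.0081) but had a WT change of 0.01 and an interaction of 1.05 (adjusted p = 0.127).

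Lox, the lysyl oxidase that starts collagen and elastin cross-linking, gave 1344.4 and 1136 in unstimulated KD, 2178.7 and 1578.3 at 1 h, and 2281.7 and 2210.1 at 4 h. WT signals were 1775.6 and 1682.2, 1510 and 1381.8, and 1767.2 and 1765.3. The 2 KD arrays at 4 h were the highest of the 12. Its interactions were 0.84 ± 0.17 at 1 h (adjusted p = 0.0414, lost in 10 of 12 fits with an array left out) and 0.83 ± 0.17 at 4 h (adjusted p = 0.0121). With the mean of all Lox probe sets they were 0.41 and 0.12 and neither was called, the other probe sets having 4 h interactions of 0.60 and -1.08 that were not called. Loxl1, a related oxidase of elastic fibres, was called in no comparison (49.9 to 100.7).

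Timp3, a matrix-bound inhibitor of metalloproteases, had a similar time course in both genotypes. WT signals were 436.8 and 469.3, then 257.9 and 211.2, then 543.6 and 542.7, and KD signals were 411.9 and 387.2, then 254.3 and 186.2, then 691.7 and 700.9. Both genotypes were lowest at 1 h of LPS and highest at 4 h of LPS, with no overlap between the groups of a genotype. A comparison of LPS 4 h with LPS 1 h, chosen after these values were seen, gave changes of 1.20 ± 0.15 in WT (adjusted p = 1.03e-05) and 1.66 ± 0.15 in KD (adjusted p = 4.29e-07). In that comparison 2 of the 33 genes were higher and 3 lower in WT, against 8.28% and 11.8% of all tested genes, and 8 were higher and 1 lower in KD, against 6.22% and 5.16%. With arrays scaled to a common median the WT split was 5 and 3. The WT count of 5 became 3 without replicate 1 of LPS 1 h or of LPS 4 h, and the KD count of 9 became 5 without KD LPS 4 h replicate 1 and 6 (5 of them higher) without KD LPS 1 h replicate 2.

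The platelet-derived growth factor receptors mark mesenchymal cells and pericytes. Pdgfra rose in KD from 52.2 and 38.4 to 129.3 and 84.9 at 1 h and 107.8 and 102.4 at 4 h, and in WT from 101.5 and 64.6 to 141.7 and 138.5 at 4 h. The WT change at 4 h of 0.76 ± 0.26 had an adjusted p of 0.0504, and the interaction of 0.40 ± 0.36 did not pass the test. Pdgfrb gave 97.4 and 66.9 in unstimulated KD and 190.3 and 134.2 at 4 h, with WT between 161.3 and 227.5. The KD change of Pdgfrb was 0.95 ± 0.21 (adjusted p = 0.005), and its interaction was 0.92 ± 0.29 (adjusted p = 0.107). With the mean of all probe sets the KD changes at 4 h were 0.62 for Pdgfra and 0.52 for Pdgfrb, neither of them called.

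Of the actin cytoskeleton genes, Tagln (transgelin, an actin-binding protein of smooth muscle and myofibroblasts) was, like Timp3, lowest at 1 h in both genotypes. KD signals were 439.7 and 399 without LPS, 280.8 and 223.9 at 1 h, and 696.8 and 686.9 at 4 h, and WT signals were 627.3 and 525.3, 352.1 and 462, and 621.8 and 550.3. From 1 h to 4 h Tagln rose by 1.45 ± 0.15 in KD and 0.53 ± 0.15 in WT (adjusted p = 2.81e-06 and 0.0209). Acta2, smooth muscle α-actin, gave 2533.7 and 1967.3, 1944.9 and 1647.2, and 3091.1 and 3293.1 in KD, where the LPS 4 h arrays lay above all the others. Its WT signals lay between 2572.5 and 3284.5. Acta2 rose in KD from 1 h to 4 h by 0.83 ± 0.11 (adjusted p = 6.98e-05), which was 0.14 and not called with the mean of its probe sets.

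Cald1 (caldesmon, which regulates actomyosin) had a 4 h interaction of 0.59 ± 0.14 (adjusted p = 0.0237), which was -0.10 on the brightest probe set whose identifier carries no mark of shared sequence. Tpm1 (tropomyosin 1) stayed between 2645.4 and 3313.2 and was called in no comparison.

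**Figure D3:**
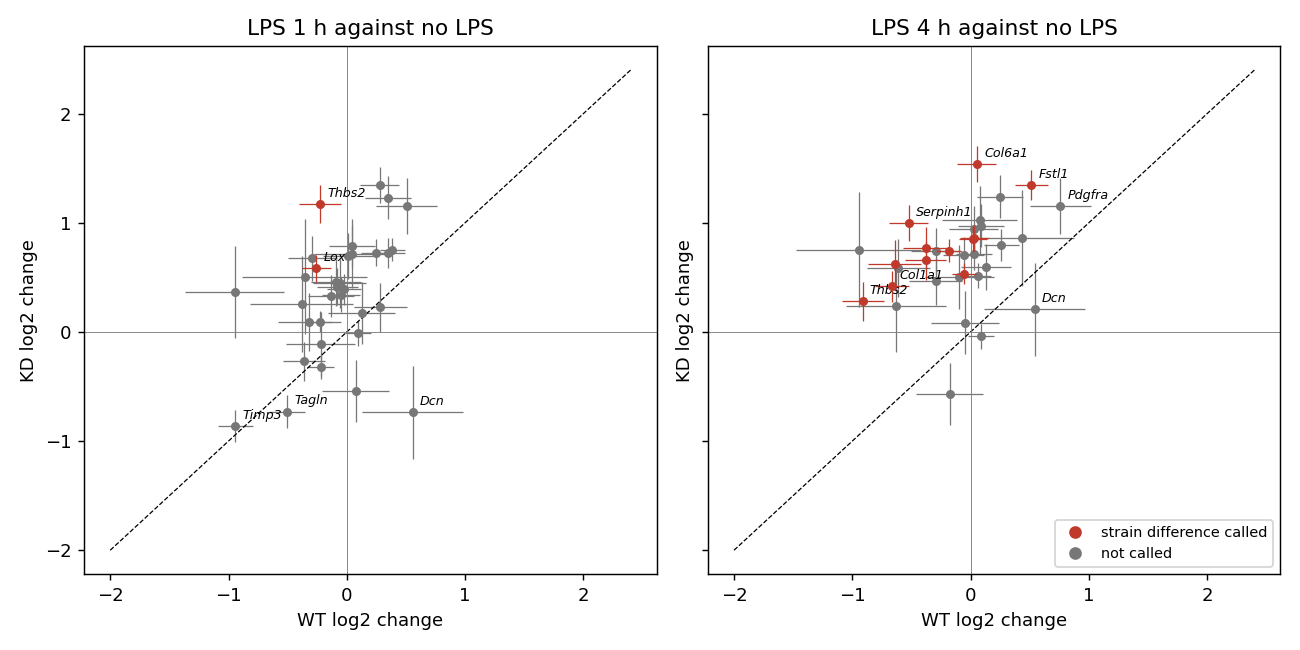
Each point is 1 tested gene, with its WT log2 change on the x axis and its KD log2 change on the y axis, at LPS 1 h (left) and 4 h (right); bars are standard errors, and the dashed line marks equal change. Red points passed the test of the difference, 2 at 1 h and 12 at 4 h, and all of them lie above the line. Some genes are named.

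Other probe sets of the called genes were read as a check within the same arrays. In the KD change at 4 h, 18 of 22 such probe sets had the sign of the called one and 10 were themselves called in that direction. For the unstimulated genotype difference these counts were 17 of 20 and 9, and for the 4 h interaction 16 of 18 and 7. None was called in the opposite direction in these 3 comparisons. With each gene taken as the mean of all its probe sets, 9 genes were called in each of the KD change at 4 h and the unstimulated genotype difference, and 5 in the interaction at 4 h.

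Markers of other cell types moved beside these genes. Of 20 further fibroblast and mesenchymal markers measured, 12 were tested; 6 were lower and 1 higher in unstimulated KD (3.87% and 2.92% of all tested genes), 8 were higher in KD at 4 h of LPS (6.74%), and 6 had a more positive and 1 a more negative interaction at 4 h (2.92% and 1.45%). Cdh11, a cadherin of mesenchymal cells, differed by -1.76 between unstimulated genotypes and rose by 1.46 in KD at 4 h, and Gas1, a growth arrest surface protein, had the highest interaction (1.87). Pdpn (podoplanin), which macrophages can also make, was the 1 marker that went the other way (0.37 and -0.54 in the first and the last comparison). The summed signal of the 20 measured markers was 8660 to 8679 in unstimulated WT, 10270 to 10359 at 1 h and 9860 to 10432 at 4 h. In KD it was 7479 to 8781 unstimulated, 9147 to 10353 at 1 h and 9760 to 9932 at 4 h. The sum thus rose with LPS in both genotypes, and the unstimulated ranges overlapped. In WT at 4 h, 2 of the 12 tested markers were higher and 2 lower (8.04% and 13.8% of all tested genes). The markers Fap, Meox1, Meox2, Mfap2, Mfap4, Prelp and Col14a1 were not above the array median on any array.

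Of 6 tested markers of marrow reticular cells, 2 were lower in unstimulated KD (3.87% of all tested genes) and 4 higher in KD at 1 h and at 4 h (3.86% and 6.74%), while Lepr was not above the array median on any array. The summed signal of the measured markers was 724 to 794 in unstimulated WT, 927 to 981.6 at 1 h and 925.9 to 936.5 at 4 h. In KD it was 573 to 675 unstimulated, 975 to 1296 at 1 h and 1043 to 1117 at 4 h, so that it rose with LPS in both genotypes. In WT at 4 h, 1 of the 6 tested markers was higher and 3 were lower (8.04% and 13.8% of all tested genes). Endothelial, osteoblast, adipocyte and smooth muscle or pericyte lists had 3, 2, 1 and 3 tested markers, and the only call among them in the unstimulated genotype difference or the KD change at 4 h was Vwf, higher in unstimulated KD (0.67). Pecam1, Tek, Tie1, Emcn, Robo4, Sox17, Sp7, Dmp1, Lep, Des and Cspg4 were not above the median on any array. The macrophage markers went the other way: 5 of 13 were higher in unstimulated KD (Csf1r, Cd14, Lyz2, Mpeg1 and C1qb), against 2.92% of all tested genes, and 4 were lower in KD at 4 h (Cd68, Mertk, Lyz2 and Mpeg1), against 6.52%. Their sum was 23273 to 24304 in unstimulated WT and 26329 to 27735 in WT at 4 h. In KD it was 28854 to 34143 unstimulated and 26190 to 28151 at 4 h. All marker counts were made on the deposited scaling. Scaling to a common median, which moved the unstimulated difference of all genes from 0.03 to -0.18, was not run for them. The part of these markers in the results on the matrix genes was not tested.

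**Figure D4:**
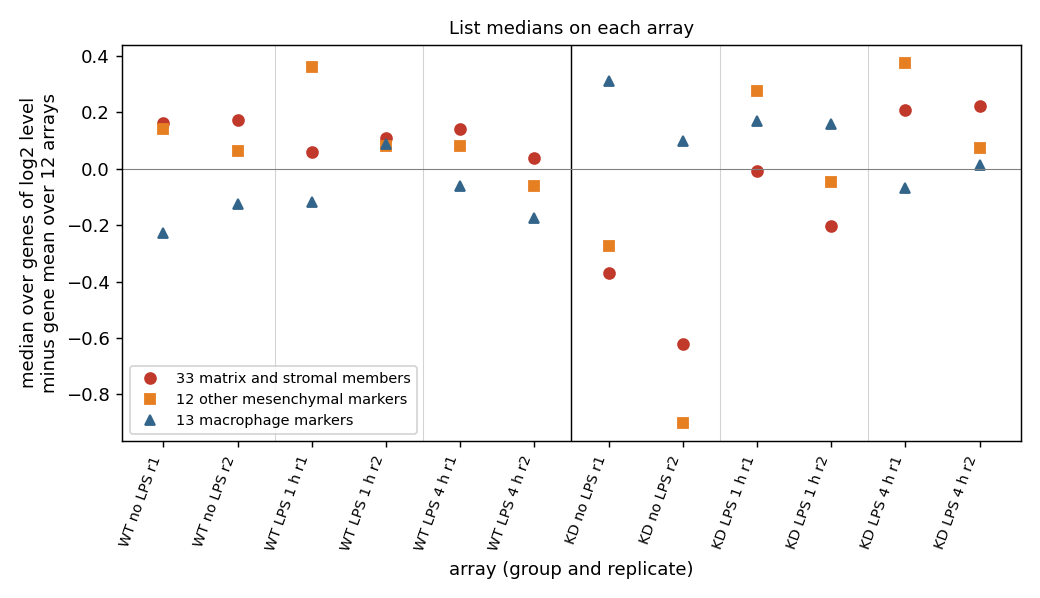
For each array, the median over a list of genes of log2(signal + 4.4) minus the gene's mean over 12 arrays, for the 33 matrix and stromal genes (red circles), 12 other mesenchymal markers (orange squares) and 13 macrophage markers (blue triangles). The matrix genes lie at -0.37 and -0.62 in the unstimulated KD arrays and between -0.20 and 0.22 on the other 10, and the mesenchymal markers are also lowest in the unstimulated KD arrays.

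Genes that work with the matrix were counted from lists chosen by function, beside the shares of all tested genes: 3.87% lower in unstimulated KD, 6.74% higher and 6.52% lower in KD at 4 h, and 2.92% with a positive interaction at 4 h. Of 24 tested TGF-β pathway genes, 5 were lower in unstimulated KD, and in KD at 4 h 7 were higher and 4 lower. Ltbp2, a TGF-β binding protein of microfibrils, differed by -1.70 between unstimulated genotypes, and the highest KD change at 4 h was that of the ligand gene Tgfb2 (1.32), the lowest that of the co-repressor gene Ski (-1.02). Of 12 other actin and serum response factor targets, 5 were lower in unstimulated KD, 5 higher in KD at 4 h, and 5 had a positive interaction, led by Tpm2 (tropomyosin 2, 1.38). Of 13 basement membrane genes, 2 were lower in unstimulated KD, led by Nid1 (nidogen-1, -1.43), and 4 higher in KD at 4 h, led by Lamb1 (laminin β1, 1.31).

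Of 17 matrix receptors, 7 were higher and 2 lower in KD at 4 h (6.74% and 6.52% of all tested genes), and 5 and 2 in WT (8.04% and 13.8%). Ddr1, a receptor tyrosine kinase for collagen, rose in KD by 2.09 and had the 1 called interaction of this list (2.01), whereas Itga6, an integrin chain for laminin, fell by 0.98 in KD and by 1.13 in WT. Of 18 genes for collagen synthesis and processing, 2 were lower in unstimulated KD (3.87% of all tested genes), led by the lysyl hydroxylase gene Plod2 (-1.09), and 1, Pcolce, was higher in KD at 4 h (1.07; 6.74%). Pcolce, which enhances procollagen cleavage, is also among the mesenchymal markers above. Of 4 genes for platelet-derived growth factor ligands, 1 (Pdgfa, -0.43) was lower in unstimulated KD (3.87%).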

How the data were processed

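RNA of each culture was hybridised to its own one-colour Affymetrix array, 12 in all and 2 per group. The deposited table holds 1 linear intensity (called signal here) per probe set and array, computed by MAS5 according to the processing notes of the submitters. The MAS5 version is not given in the sources used here. Per the labels' protocols, RNA was extracted with RNeasy kits and amplified by the Ovation method. On every array the mean after trimming 2% from each end was 150, so no further normalization was applied. Of 45101 probe sets, 34945 had 1 gene symbol, 932 several and 9160 none in the platform annotation, and 64 were controls, which were left out.

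Signals were tested as log2(signal + 4.4) with limma 3.58.1 in R 4.3.3 (lmFit with 1 mean per group, eBayes with a trend) on all 12 arrays, for the 27931 probe sets above the array median on at least 2 arrays. Fold changes on this scale understate those of dim genes. P-values were adjusted by the Benjamini-Hochberg method over all tested probe sets of a comparison, and a gene was called at an adjusted p under 0.05. A gene was represented by its brightest probe set, and shares over all genes use 12876 genes. The procedure was also run on simulated data with independent noise for each probe set. That simulation held no shift shared by the genes of an array, so it does not bear on such shifts. Precision is limited by 2 arrays per group.

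Over all tested probe sets the replicate numbers showed no pairing of the arrays. For 15 pairs of groups, the correlation of the deviations of same-numbered arrays from their group means was -0.07 to 0.04. This correlation could not show a replicate effect limited to the matrix genes. Of the 33 matrix genes, 27 were lower in replicate 2 than in replicate 1 in unstimulated KD, and 25 in KD at LPS 1 h. The genes, the lists and the tests were chosen with earlier results of these data known. In each comparison the rule named up to 8 called genes in each direction, each gene called in an interaction, and in each pathway list the called gene with the largest change in each direction; the other named genes and values were added after their values were seen. The comparison of LPS 4 h with LPS 1 h was also added then. Alternatives were other scalings, filters, pseudocounts, variance priors, sets of arrays and probe set choices, a replicate block, and leaving out each array.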

Additional observations from a re-analysis of the deposited data

Results flagged for a closer look

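The LPS response of 12 matrix and stromal genes differed between KD and WT by a test of the interaction (KD change minus WT change, log2 ± SE, limma, Benjamini-Hochberg adjusted p). At 4 h the difference was 1.52 ± 0.23 for Serpinh1 (adjusted p = 0.00136), 1.49 ± 0.23 for Col6a1 (0.00167), 1.26 ± 0.32 for Col3a1 (0.0347), 1.19 ± 0.25 for Thbs2 (0.0128), 1.15 ± 0.27 for Col1a2 (0.0272) and 1.08 ± 0.20 for Col1a1 (0.00575). It was 1.03 ± 0.25 for Col5a2 (0.0278), 0.93 ± 0.15 for Sparc (0.00176), 0.83 ± 0.20 for Fstl1 (0.0246), 0.83 ± 0.17 for Bgn (0.0117), 0.83 ± 0.17 for Lox (0.0121) and 0.59 ± 0.14 for Cald1 (0.0237). At 1 h the difference was 1.40 ± 0.25 for Thbs2 (0.0199) and 0.84 ± 0.17 for Lox (0.0414). The change was more positive in KD for each of these genes. The calls at 4 h for Serpinh1, Col6a1 and Sparc were kept in all 12 fits with an array left out, and all 14 differences missed the threshold without a trend in the variance prior. With the mean of probe sets the 4 h calls of Sparc, Bgn, Cald1, Col1a1, Col1a2, Lox and Thbs2 were lost. That of Serpinh1 was lost on its other probe set. No group had 4 or more arrays, so no array was tested as an outlier.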

How the results depend on the processing

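Of 93 calls of a gene in a comparison, 41 were kept in all 12 fits with an array left out and 15 in those and all 11 other alternatives: Col6a1 and Col6a2 in KD at 1 h and 4 h, Thbs2 in KD at 1 h and WT at 4 h, Bgn, Col4a2, Fstl1 and Serpinh1 in KD at 4 h, Timp3 in WT at 1 h and from 1 h to 4 h in both genotypes, and Col5a2 and Tagln from 1 h to 4 h in KD. Col6a1, Col4a2 and Tagln had 1 probe set each, so the probe set choices could not alter the sizes of their changes. Without a trend in the variance prior the counts of called genes were 1 and 1 for WT at 1 h and 4 h, 4 and 9 for KD, 0 for each genotype difference and each interaction (20 unadjusted for the unstimulated one), and 2 and 4 from 1 h to 4 h in WT and KD. With the mean of all probe sets they were 1 (WT 1 h), 9 (KD 4 h), 9, 1 (genotype difference unstimulated and at 1 h), 0 and 5 (interaction at 1 h and 4 h) and 5 (KD from 1 h to 4 h). With arrays scaled to a common median they were 17 (genotype difference at 1 h), 1 (interaction at 1 h) and 8 (WT from 1 h to 4 h). The interaction at 1 h had 1 call with no filter, with a pseudocount of 1 and with the arrays compared only, and WT at 1 h had 1 with no filter. Leaving out single arrays gave 1 to 2 (WT 1 h), 2 to 6 (WT 4 h), 8 to 13 (KD 1 h), 11 to 19 (KD 4 h), 10 to 18, 3 to 8 and 2 to 6 (genotype difference unstimulated, at 1 h and at 4 h), 0 to 5 and 4 to 17 (interaction at 1 h and 4 h), and 3 to 6 and 5 to 9 (from 1 h to 4 h in WT and KD). Where this left 1 array in a group, it was taken to vary like the other groups. The sign turned for Serpinh1 in WT at 4 h (0.012) and Cald1 in the 4 h interaction (-0.10) with probe sets free of marks of shared sequence, and for Col12a1 in KD at 4 h (-0.17) and Fbln1 in the unstimulated genotype difference (-0.37) with the mean of probe sets; the cause was not tested. The replicate numbers showed no pairing of the arrays over all tested probe sets. With the replicate block the counts were 20 for KD at 4 h, 15 for the unstimulated genotype difference and 13 for the interaction at 4 h. Dim signals, at or below the array median on some arrays, limit Mfap5, Tnc, Fbln2, Dcn and Postn.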
